A study of Rattus norvegicus with 8 samples.

Results

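The genes of the NF-kappaB transcription factors and of the proteins that hold them in check were followed in immature lymphocytes of the rat thymus (thymocytes) with and without the synthetic glucocorticoid dexamethasone. Members were taken by name from a list of 10 genes, with every probe that the array assigns to one of them. This gave 10 of the 41012 non-control probes on the array, and they belong to 6 genes: Rela, Rel, Nfkb1, Nfkb2, Nfkbia and Nfkbib. Rela, Nfkb1, Nfkb2 and Nfkbia have a pair of probes each, and Rel and Nfkbib have a single one. The other 4 genes of the list, Nfkbie, Relb, Tnfaip3 and Bcl3, have no probe of that name and no value under this rule. A probe outside the rule that now has the gene identifier of Bcl3 is described below. A probe named Slc35b2 has an accession that RefSeq now lists under Nfkbie, with Slc35b2 as a synonym, and it was not used because the array describes it as a solute carrier gene.

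Both groups came from primary thymocytes of male Sprague-Dawley rats without adrenal glands, with the thymi of 3 animals pooled for a preparation, and both were held in culture with serum for 6 hours. Control cells received no hormone (4 arrays) and Dex cells received 100 nM dexamethasone (4 arrays). Total RNA was labeled with Cy3 and read on 1-color Agilent Whole Rat Genome arrays of 60-base probes. The age of the animals is not given in the sources used here, and the labels do not say which preparation each array came from, so the p-values below measure the spread between these samples, which may be technical. All values are log2 signals after quantile normalization, differences are Dex minus Control on that scale, and a probe was called where its adjusted p was 0.05 or less.

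NF-kappaB is a family of dimeric transcription factors. Its DNA-binding subunits p65 (Rela), c-Rel (Rel), RelB (Relb), p50 (made from the precursor p105 of Nfkb1) and p52 (made from the precursor p100 of Nfkb2) are kept in the cytoplasm of resting cells by inhibitors of the IkappaB family. The IkappaB kinase complex marks the inhibitors for degradation, freed dimers enter the nucleus, and among the genes they turn on is Nfkbia, which encodes IkappaBalpha and so closes a feedback loop. In thymocytes NF-kappaB acts in selection and survival, and in lymphoid cells IkappaBalpha is a known glucocorticoid-induced gene.

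Nfkbia is the member on which the results turn, so its probes and promoter are shown. The pair of probes lies on chromosome 6, minus strand, of build rn3, the build named in the scanner output. They are listed in the order of transcription, with 162 bases between them. The first probe, at chr6:75733564-75733623, is printed whole, and of the second, at chr6:75733342-75733401, the first 30 bases are printed. No letter is in capitals, since no part of a probe is singled out.
Nfkbia first probe: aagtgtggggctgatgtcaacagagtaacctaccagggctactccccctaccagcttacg
Nfkbia second probe, first 30 bases: ctcaccacacctaggtctgttctagagctg

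The promoter of Nfkbia was taken from RefSeq in build GRCr8, a different build from that of the probes. It is the 250 bases before the annotated start, at chr6:78597073-78597322 on the minus strand, written in the direction of transcription. Capitals mark the only match to the NF-kappaB consensus, kappaB, which lies 31 to 22 bases before the start and matches on the strand opposite to the gene.
Nfkbia promoter: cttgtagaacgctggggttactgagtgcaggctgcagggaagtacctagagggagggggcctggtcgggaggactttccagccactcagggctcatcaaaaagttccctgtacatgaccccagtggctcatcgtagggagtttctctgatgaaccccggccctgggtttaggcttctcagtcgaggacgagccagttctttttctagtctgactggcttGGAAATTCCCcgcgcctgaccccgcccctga
Promoters were found for 9 of the 10 genes of the list, all but Relb. A kappaB consensus match on either strand was present in 6 of these 9, in Rel, Nfkb2, Nfkbia, Nfkbie, Tnfaip3 and Bcl3, and in 3.52% of 27457 rat promoters of the same length. The GC box, GGGCGG, was present in 8 of the 9 and in 32.4% of all promoters, and in Nfkbia it does not overlap the kappaB match. The core hexamer bound by a glucocorticoid receptor monomer, AGAACA, was present in none of the 9 and in 17.1% of all promoters. The palindromic glucocorticoid response element, AGAACANNNTGTTC, which holds the hexamer, was present in none of the 9 and in 0.0328% of all promoters. These matches describe letters in a window of 250 bases and say nothing about binding.

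All 10 member probes were well above background, by the flag of the scanner software, on all 8 arrays. Over the whole array, 24911 to 34476 probes per array were well above background and no spot was saturated. Dex 1 and Dex 2 had the fewest, 26474 and 24911, and the other arrays had 28666 or more. Control 1 and Dex 3 shared a slide and were scanned apart from the others, Control 2 to 4 shared another slide, and Dex 1, 2 and 4 a further one, so that only 1 slide holds both groups. All 17 T lineage markers were well above background on all arrays, and none was called. The mean level of the 16 with a value on every array was 12.36 to 12.47 in Control and 11.91 to 12.24 in Dex, without overlap. Of the 17, 14 were lower in Dex, with a median difference of -0.17. At an unadjusted p under 0.05 there were 5 lower (Bcl11b, Cd5, Lck, Ptcra and Rag1) and 1 higher (Cd8b), named after their values were seen. Of genes with a symbol, 5.48% were lower and 6.52% higher at that limit. The treatment was checked with 10 known glucocorticoid-induced genes, of which 6 were called and all 6 rose, from Fkbp5 and Bcl2l11 at 1.73 and 1.77 and Klf9 at 1.98 to Dusp1, Tsc22d3 and Ddit4 at 3.05, 3.59 and 3.73. In the fit blocked by replicate number 5 of the 10 were called, and Bcl2l11 was not (limma, adjusted p = 0.121). Nr3c1, Per1 and Zbtb16 differed by 0.81, 0.73 and 0.29 and the kinase gene Sgk1 by -1.32, none of them called. In samples of whole cell suspensions, fewer cells of a type and less RNA per cell cannot be told apart.

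Across the members, both probes of Nfkbia rose and no other member probe was called. These are 2 of 10 member probes, beside 0.778% of all probes on the array. No value of one group reached into the range of the other in 4 of the 10 member probes, against 9.1% of all probes. By the brightest probe of each gene, 1 of the 6 members was called, beside 1.01% of 16397 genes with a symbol. In the fit blocked by replicate number, 1 of the 10 member probes was called, the dimmer Nfkbia probe, and none of the 6 brightest ones. The median difference of the 6 members was 0.13, and that of all these genes was 0.0088.

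**Figure D1:**
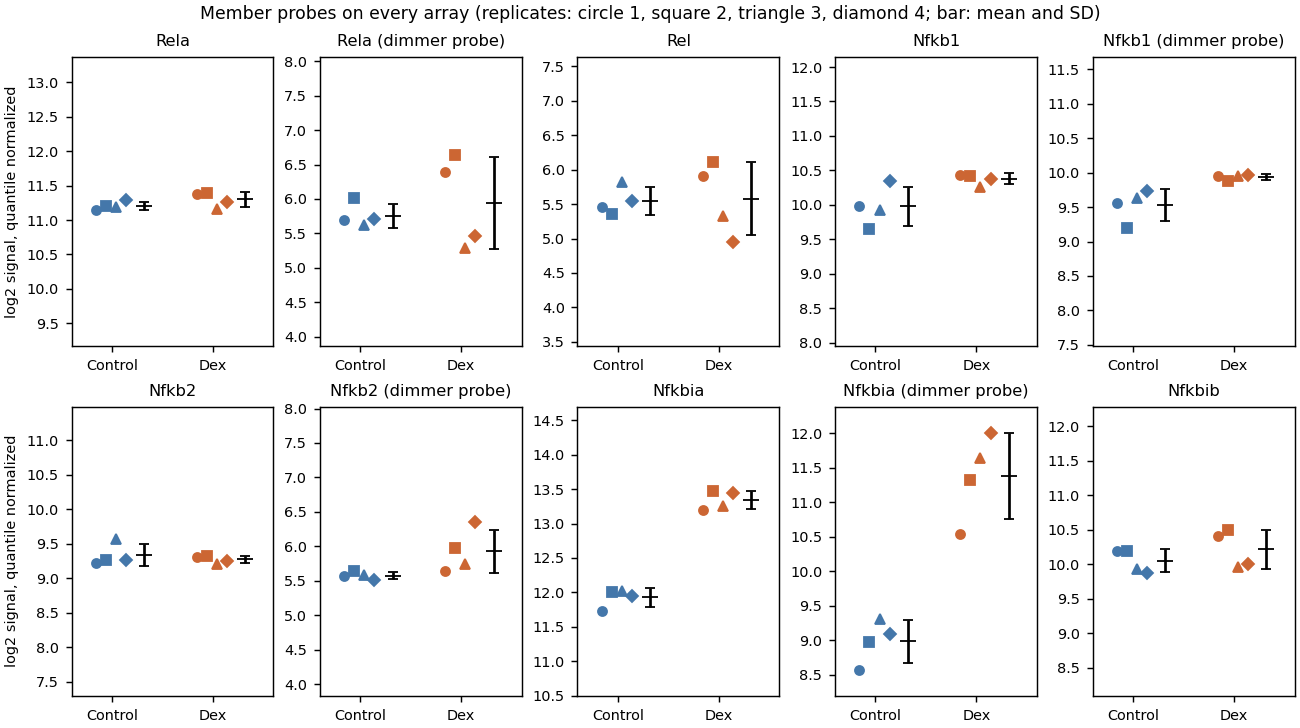
Quantile normalized log2 signal of the 10 member probes on each array (Control blue, Dex orange, symbols for replicates 1 to 4, bars for mean and SD, n = 4 a group; every panel spans the same range of log2 units). The 4 Dex arrays lie above the 4 Control arrays for both Nfkbia probes, while the groups overlap for Rela, Rel and Nfkbib.

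Of the DNA-binding subunits, Rela encodes p65, which carries a strong transactivation domain. The brighter Rela probe, at chr1:208425802-208425861, measured 11.15, 11.20, 11.19 and 11.29 on Control arrays 1 to 4 and 11.38, 11.39, 11.16 and 11.26 on Dex arrays 1 to 4. The groups overlapped, since Dex 3 and 4 lay within the Control range. The difference was 0.094 with a 95% confidence interval of -0.22 to 0.41 (limma, adjusted p = 0.863). The dimmer probe, at chr1:208416979-208417035, measured 5.69, 6.01, 5.62 and 5.71 in Control and 6.39, 6.63, 5.29 and 5.46 in Dex. Its Dex arrays 1 and 2 lay above all Control arrays and its Dex arrays 3 and 4 below them. The mean difference of 0.19 (SE 0.322, limma adjusted p = 0.887) is therefore small beside the Dex SD of 0.667.

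Rel encodes c-Rel, the subunit that is most restricted to lymphoid and myeloid cells. Its probe, at chr14:104664941-104665000, measured 5.46, 5.35, 5.82 and 5.54 in Control and 5.91, 6.11, 5.33 and 4.96 in Dex. As for the dimmer Rela probe, Dex 1 and 2 were high and Dex 3 and 4 were low. The difference was 0.034 with a 95% confidence interval of -0.59 to 0.66 (limma, adjusted p = 0.978), and it changed sign when Dex 1, Dex 2 or Control 2 was left out. Differences between Dex and Control of the same replicate number were 0.45 and 0.76 for replicates 1 and 2 and -0.49 and -0.59 for replicates 3 and 4. The arrays with high Rel among the Dex arrays are the 2 with the fewest probes well above background, and the part of that in the result was not tested.

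Nfkb1 encodes p105, the precursor of p50, which itself acts as an IkappaB. Its brighter probe, at chr2:233077860-233077919, was printed 10 times on each array. It measured 9.98, 9.65, 9.93 and 10.35 in Control and 10.44, 10.42, 10.26 and 10.38 in Dex. Only Control 4 lay within the Dex range. The SD over its 10 spots of an array was 0.0324 to 0.0724, and the SD of its level over the arrays was 0.287 in Control and 0.0801 in Dex. The difference was 0.40 with a 95% confidence interval of -0.015 to 0.81 (limma, adjusted p = 0.494).

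The dimmer Nfkb1 probe lies at chr2:233078444-233078503. It measured 9.56, 9.19, 9.63 and 9.73 in Control and 9.95, 9.88, 9.95 and 9.97 in Dex, so that every Dex array lay above every Control array. Both Nfkb1 probes were higher in Dex in each of the 4 replicate pairs, and they differed by nearly the same amount, 0.40 and 0.41. The dimmer one was not called by limma (adjusted p = 0.418). By the signal to noise statistic, which the study used with permutations of its own and here was set against all 70 assignments of the 8 arrays, it passed at a one-tailed p of 0.00382, as did 6.79% of probes tested, and the brighter Nfkb1 probe, at 0.0141, did not.

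Nfkb2 encodes p100, the precursor of p52 and, like p105, an inhibitor with ankyrin repeats. The brighter probe, within chr1:251789719-251789911, measured 9.22, 9.27, 9.57 and 9.27 in Control and 9.31, 9.32, 9.21 and 9.25 in Dex. Control 3 stood apart at 9.57 and the groups overlapped. The difference was -0.057 with a 95% confidence interval of -0.39 to 0.28 (limma, adjusted p = 0.924). The dimmer probe, within chr1:251785943-251786267, measured 5.56, 5.64, 5.58 and 5.51 in Control and 5.65, 5.97, 5.75 and 6.35 in Dex. All Dex arrays were above all Control arrays, Dex 1 by the least. This probe differed by 0.35 (SE 0.185, limma adjusted p = 0.574), so the probes of Nfkb2 differ in sign and neither was called. Both genomic spans are longer than the 60 bases of a probe.

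Of the inhibitors, Nfkbia encodes IkappaBalpha, which binds p65 and p50 dimers, masks their nuclear localization and takes them out of the nucleus. The brighter of its probes, the first of those printed above, measured 11.73, 12.01, 12.02 and 11.95 in Control and 13.20, 13.46, 13.25 and 13.44 in Dex. The lowest Dex array lay more than 1 log2 unit above the highest Control array. The level rose from 11.93 ± 0.135 (SD, n = 4) to 13.34 ± 0.133 (SD, n = 4), a difference of 1.41 (SE 0.150, 2.66-fold), with a 95% confidence interval of 1.07 to 1.76 and an adjusted p of 0.00643 by limma. With the replicate number as a block the size was the same and the adjusted p by limma was 0.0673, so this call was lost.

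The dimmer Nfkbia probe measured 8.57, 8.98, 9.30 and 9.09 in Control and 10.55, 11.33, 11.64 and 12.01 in Dex. Again no Dex array came near the Control range, although the Dex arrays themselves spread over more than 1 log2 unit. The level rose from 8.98 ± 0.310 (SD, n = 4) to 11.38 ± 0.624 (SD, n = 4), a difference of 2.40 (SE 0.325, 5.27-fold), with an adjusted p of 0.0186 by limma and 0.0416 with the replicate block. Leaving out Control 1, 2, 3 or 4, or Dex 2 or 3, raised the adjusted p of this probe to between 0.0530 and 0.0886, while the brighter probe was called without any one of the 8 arrays, at 0.0211 to 0.0425. Among all probes the absolute differences of the pair stand at the 98.8 and 99.8 percentiles.

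The Nfkbia probes thus agree in direction and not in size. The array ties each of these probes to a different transcript record. The gap between them on an array, the first minus the second, was 3.16, 3.03, 2.72 and 2.86 in Control and 2.65, 2.14, 1.61 and 1.42 in Dex. All Dex gaps were smaller than all Control gaps, by 0.99 on average, and an exact two-sided permutation test gave p = 0.0286, the smallest that 4 arrays against 4 allow. The cause was not tested.

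On the slide that held both groups, Dex 3 exceeded Control 1 by 1.53 for the brighter and 3.08 for the dimmer Nfkbia probe. The rise was therefore at least as large within that slide as over all arrays, with 1 array a group and no test. With the arrays of that slide left out, an alternative chosen after the data were seen, the differences were 1.37 and 2.17 and neither was called with 3 arrays a group (limma, adjusted p = 0.0793 and 0.140).

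Nfkbib encodes IkappaBbeta, which is degraded and resynthesized more slowly than IkappaBalpha. Its probe, at chr1:83944311-83944370, measured 10.19, 10.20, 9.93 and 9.88 in Control and 10.41, 10.50, 9.95 and 10.00 in Dex. Replicates 1 and 2 were the higher ones in both groups, and the groups overlapped. The difference was 0.16 with a 95% confidence interval of -0.27 to 0.60 (limma, adjusted p = 0.819), so a rise of the size of Nfkbia's lies outside the interval.

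**Figure D2:**
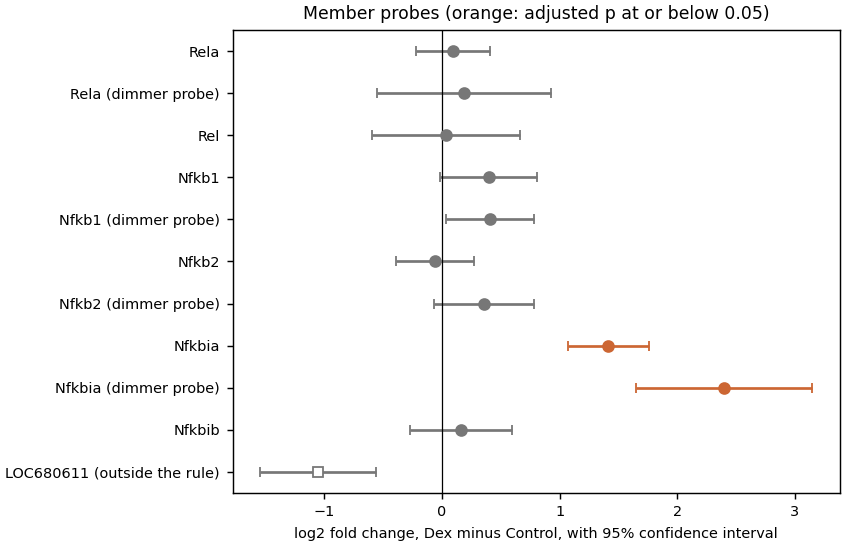
Difference between Dex and Control (log2, points) with its 95% confidence interval (bars) for the 10 member probes and, as an open square, the LOC680611 probe described below. The intervals of both Nfkbia probes lie above 1, and those of all Rela, Rel, Nfkb2 and Nfkbib probes include 0.

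The same values can be set against each other on each array, which restates that the change of Nfkbia was the largest among the members. Nfkbia minus Rela, Rel, Nfkb1, Nfkb2 and Nfkbib, each by its brightest probe, shifted upward from Control to Dex by 1.32, 1.38, 1.01, 1.47 and 1.25. Each of these within-array differences was higher on every Dex array than on any Control array. They are given as a description, with no test.

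The signs over the 4 replicate pairs are given as a description, with no share over all probes beside them. Both Nfkbia probes, both Nfkb1 probes, the dimmer Nfkb2 probe and Nfkbib were higher in Dex in 4 of 4 pairs. For Nfkbib the pairs differed by only 0.024 to 0.30, and on the shared slide Dex 3 minus Control 1 was -0.24. For Nfkbia the brighter probe ranged from 1.23 to 1.48 over the pairs and the dimmer one from 1.98 to 2.92. Both Rela probes, Rel and the brighter Nfkb2 probe were higher in 2 of 4 pairs, those of replicates 1 and 2 in each case.

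**Figure D3:**
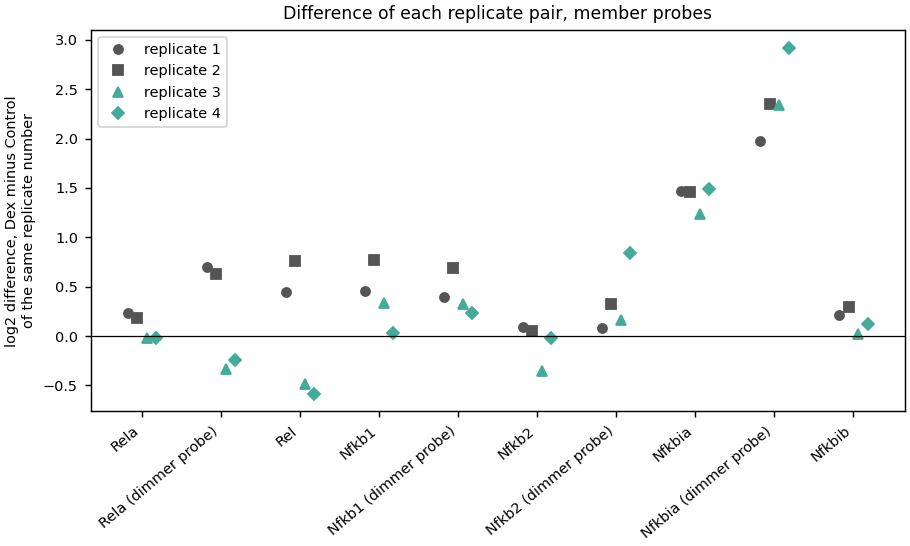
Dex minus Control of the same replicate number (log2) for each member probe, with replicates 1 and 2 in grey and 3 and 4 in green. Nfkbia is above 1 in every pair, whereas the dimmer Rela probe and Rel are above 0 for replicates 1 and 2 and below 0 for replicates 3 and 4.

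Among the other regulators, Tnfaip3 encodes A20, a ubiquitin-editing brake on the pathway, and Bcl3 an atypical IkappaB of the nucleus. Neither has a probe of its name. A probe named LOC680611, which the array describes as similar to Bcl3 and whose gene identifier is now that of Bcl3, falls outside the rule and was found when the missing names were looked up. It lies at chr1:79200943-79201002 in rn3. It measured 8.56, 8.30, 8.87 and 8.98 in Control and 7.87, 7.49, 7.32 and 7.82 in Dex, with every Dex array below every Control array. The difference was -1.05 (SE 0.214), and it was not called by limma (adjusted p = 0.0888, and 0.201 with the replicate block).

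Of a list of 50 other genes of the pathway, 42 have a probe, and none was called by limma, beside 1.01% of genes with a symbol, whereas 3 had an unadjusted p under 0.05. By the signal to noise statistic 3 of the 42 passed, a share near the 6.79% of all probes that did. All 3 with the low unadjusted p were higher in Dex, Tax1bp1, Rbck1 and Otud7b, and the last of these was named after its value was seen. The median difference of the 42 genes was near 0 (7.89e-05), with 21 genes higher and 21 lower, and every one of them differed by less than 2-fold. In all genes the share with an unadjusted p under 0.05 was 6.52% upward and 5.48% downward.

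Tax1bp1, an adaptor through which A20 reaches its substrates, measured 12.37, 12.28, 12.36 and 12.40 in Control and 12.81, 12.97, 12.62 and 12.62 in Dex. Rbck1, which encodes HOIL-1 of the linear ubiquitin ligase complex, measured 12.97, 13.10, 13.00 and 13.17 in Control and 13.48, 13.55, 13.24 and 13.42 in Dex. Neither gene's groups overlapped, and the differences of 0.41 and 0.36 were not called (limma, adjusted p = 0.363 and 0.418). Tnip2, an A20-binding inhibitor, differed by 0.28 and Ikbkb, the catalytic subunit IKKbeta, by 0.20, again without overlap and without a call (limma, adjusted p = 0.575 and 0.667). The other IkappaB kinase subunits, Chuk and Ikbkg, named for their role, differed by -0.12 and 0.44.

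Of 50 textbook NF-kappaB target genes, 48 have a probe, and 3 were called by limma, all lower in Dex: Bcl2l1, Fas and Ccl2. These are 3 of 48, beside the 1.01% of genes with a symbol. Of the 48 genes, 33 were lower and 15 higher, with a median of -0.19. These counts include dim genes, since 35 of the 48 were well above background on all arrays and 2 on none. At an unadjusted p under 0.05, 13 were lower and 3 higher, the latter being Gadd45b, Junb and Vcam1, named after their values were seen. Of genes with a symbol, 5.48% were lower and 6.52% higher at that limit. With the replicate block none of the 48 was called, and leaving out any one array left 0 or 1. The T lineage markers, described above, also had a negative median of -0.17, and their part in the values of the target list was not tested. The target list describes RNA levels of these genes and is not a readout of NF-kappaB activity.

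Bcl2l1, which encodes the survival protein Bcl-xL, measured 12.70, 12.92, 12.92 and 12.84 in Control and 11.91, 11.91, 11.60 and 11.79 in Dex. It fell by 1.04 (SE 0.148, limma adjusted p = 0.0232), and of its 4 probes only the brightest was called. Fas, the death receptor, measured 12.52, 12.65, 12.64 and 12.53 in Control and 11.82, 11.87, 11.70 and 11.69 in Dex. It fell by 0.82 (SE 0.135, limma adjusted p = 0.0418), with 1 of its 2 probes called. Both genes are thus lower on every Dex array than on any Control array.

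Ccl2, a chemokine that attracts monocytes, measured 5.21, 6.24, 6.27 and 6.81 in Control and 4.38, 3.60, 2.70 and 2.89 in Dex. It fell by 2.74 (SE 0.454, limma adjusted p = 0.0424) and was well above background on 3 of the 4 Dex arrays. Cxcl2, a chemokine for neutrophils, measured 5.84, 7.59, 6.05 and 5.68 in Control and 5.15, 5.35, 5.52 and 5.07 in Dex. Its groups did not overlap, Control 2 stood highest, and the difference of -1.02 was not called (limma, adjusted p = 0.421). Both chemokines are also made by macrophages and stromal cells. The 12 macrophage and dendritic cell markers on the array had a mean level of 6.26 to 6.56 in Control and 6.25 to 6.72 in Dex, with none called, and 9 of them were well above background on all arrays. Of the 12, 7 were higher and 5 lower in Dex, with a median difference of 0.13, and the lowest was Cd14 at -0.77. At an unadjusted p under 0.05, 2 of the 12 were higher in Dex, C1qb by 0.84 and C1qc by 0.97, and 0 were lower. Of genes with a symbol, 6.52% were higher and 5.48% lower at that limit. The 10 markers of epithelium and stroma lay at 5.28 to 5.52 and 5.44 to 6.04, the 5 of B cells at 5.11 to 5.70 and 4.81 to 6.01, and the 4 of erythroid cells at 5.59 to 7.13 and 5.71 to 7.45, with none called. Of the epithelium and stroma markers 9 of 10 were higher in Dex, with a median difference of 0.43. Their part in the chemokine values was not tested.

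**Figure D4:**
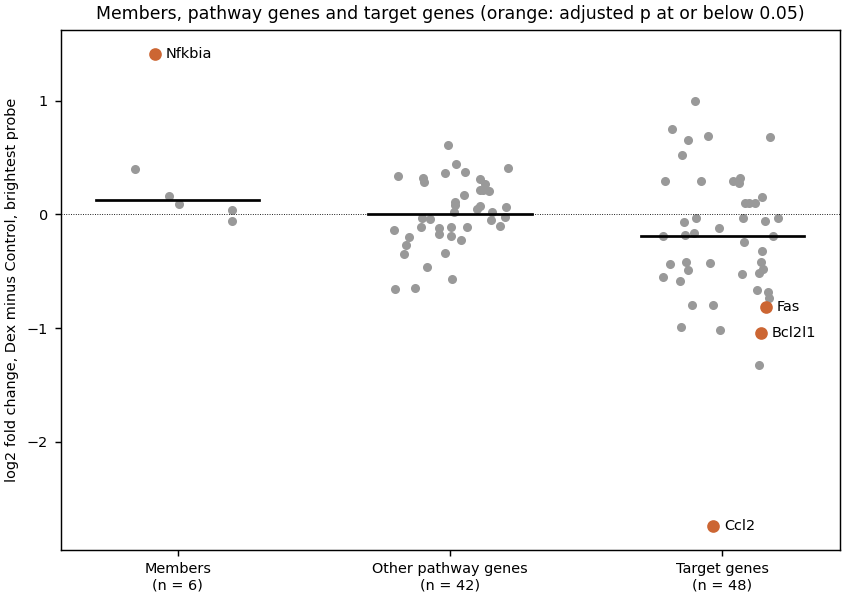
Difference between Dex and Control (log2, brightest probe) for the 6 members, 42 other pathway genes and 48 target genes, with called genes in orange and named, and a line at each median. Nfkbia at 1.41 is the only called gene above 0, and Bcl2l1, Fas and Ccl2 are the called genes below it.

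By Pearson correlation over the 8 arrays, among 10903 genes compared, the genes most like Nfkbia were Angptl4, Nrsn1, Sesn1, Socs1 and Camkk1, with r from 0.989 to 0.991. Their differences between Dex and Control were 4.26, 2.34, 1.28, 1.12 and 1.93. Such an r over arrays of both groups mainly holds the group difference that these genes share.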

How the data were processed

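Gene expression was measured on 4 Control and 4 Dex arrays. The authors' deposited scanner output gives an intensity per spot from Feature Extraction 9.5.3.1, with background subtracted and no normalization between arrays, beside flags (0 or 1) for outliers, saturation and signal well above background. They further deposited log2 values, quantile normalized and summarized by median polish, by the authors. The methods describe 3 biological replicates without naming arrays, so all 8 were used.

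Intensities were turned to log2, quantile normalized, and summarized per probe by median polish, with outlier spots left out (16 missing values). This matched the deposited log2 values of each array at r of 0.999999 or more. limma (version 3.58.1, R version 4.3.3) was fitted to all 41012 probes, two-sided, with Benjamini-Hochberg adjustment over all of them. The gap between the Nfkbia probes was tested by exact permutation over arrays. The signal to noise statistic used all 70 assignments, called at a one-tailed p of 0.01 and a fold of 1.2. Procedures were tested on simulated data. The number of arrays limits the precision.

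Members and gene lists were chosen with earlier results of these data known. Named genes are all members, called genes of the pathway and target lists and, up to 4 a list, those with the largest differences without overlap, the glucocorticoid control list, and the 5 genes most like Nfkbia. Outside this rule, Otud7b, Gadd45b, Junb, Vcam1, 6 T lineage markers, C1qb and C1qc were named because few genes passed an unadjusted p under 0.05, Cd14 as the lowest of its list, and Chuk and Ikbkg for their role. The brightest probe stands for a gene.

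Replicate numbers are shared by both groups. Deviations from the group means correlated between same-numbered arrays at 0.40, 0.13, 0.55 and 0.18, all over 0.1, so the numbers were taken as pairs, and a blocked fit stands beside a result whose call it changes. Some unlike numbers correlated more closely than the like ones. Dex 2 correlated at 0.40 with Control 1 against 0.13 with Control 2. Dex 4 correlated at 0.39 with Control 3 against 0.18 with Control 4. The pairing by number is therefore an assumption. Alternatives were the block, other scaling, background correction, probe filters, slide terms, a variance trend, the mean of probes and each array left out. Every value column of the deposited log2 table belongs to a sample.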

Additional observations from a re-analysis of the deposited data

Results flagged for a closer look

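The brighter Nfkb2 probe measured 9.57 on Control 3, against 9.22 to 9.27 on the other Control arrays. Its distance from the next array made up 0.870 of the full Control range, past Dixon's 95% limit for 4 samples. Of the 22 groups tested over 11 probes this was the only 1, and chance gives about 1 in 20. Without Control 3 the Nfkb2 difference was 0.022.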

How the results depend on the processing

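The 2 called member probes became 1 with the replicate block, 1 with 75th percentile scaling, 0 with slide as a fixed term, 0 without slide 1 (added after the data were seen), and 1 to 2 with each array left out in turn. Nfkbia kept its direction under all 20 alternatives. Its brighter probe was not called with the block (1.41, adjusted p = 0.0673), 75th percentile scaling (1.43, 0.0989), slide as a fixed term (1.53, 0.588, resting on 1 array a group) or without slide 1 (1.37, 0.0793). The block changed no other member call. The 3 called target genes became 0 with the block, 0 with 75th percentile scaling, 0 with the slide term, 0 without slide 1, 6 with normexp, 7 with slide as a random block, 10 by the signal to noise statistic, and 0 to 1 with each array left out. For the pathway genes, 0 became 3 by the signal to noise statistic, which called 6.79% of all probes. Signs reversed, never with a call, for the dimmer Rela probe (-0.40 with the slide term, -0.044 to 0.40 with each array left out), Rel (-0.13 with the slide term, -0.14 to 0.24 with each array left out), Nfkb2 (0.15 for the mean of its probes, -0.093 to 0.022 with each array left out) and Nfkbib (-0.24 with the slide term). The dimmer Nfkb1 probe passed by the signal to noise statistic alone (0.41). The causes were not tested. Of all probes, 319 were called, against 81 with the block, 166 with 75th percentile scaling, 912 with normexp, 726 with a variance trend, 1 and 1840 with slide as a fixed and a random term, 56 without slide 1, and 96 to 249 with each array left out. Slide 2 holds Control arrays only and slide 3 Dex arrays only, so outside slide 1 slide and group cannot be told apart. By the flag of the scanner software, the 10 member probes were well above background on all 8 arrays. The part of signal level in their spread was not tested.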
